A study of Mus musculus with 12 samples.

Results

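The comparison described here is that of MLL-ENL with wild-type (WT) granulocyte and macrophage precursors, called preGM. Its 6 libraries were chosen by their titles, 3 of MLL-ENL and 3 of WT preGM, out of 12 mouse libraries in the series. Per the labels, the WT cells came from strain C57bl/6 WT and the MLL-ENL cells from strain Col1a1-MLL/ENL, and both were gated as lineage-negative cells with ckit and without Sca1, CD150, CD105, CD41 and CD16/32. Both groups were cultured for 48 h in OptiMEM with 10% FCS and doxycycline (1 µg/ml), and with the cytokines SCF (10 to 50 ng/ml), G-CSF (5 ng/ml) and IL3 (5 ng/ml), and RNA was made into libraries with a SMARTer low-input kit. The series' design text names induction of the fusion gene as the contrast. Every WT library also had doxycycline and no MLL-ENL library lacked it, so an effect of the fusion and any other strain difference cannot be told apart. Nothing in the labels ties a replicate to its own animal or culture, and p-values therefore speak of the spread among these 6 libraries only. They give neither the promoter behind the transgene nor the number of founder lines.

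MLL (gene Kmt2a) is a histone methyltransferase that keeps HOX genes active, and ENL (Mllt1) is a reader of acetylated histones that brings elongation factors to genes. In the leukaemia fusion MLL-ENL, the DNA-binding front of MLL is joined to the tail of ENL, and HOXA genes and their cofactor Meis1 are its best known targets. PreGM are early committed myeloid cells. As their offspring mature they make the proteins of the primary granules first and those of the later granules after that, under the C/EBP transcription factors and PU.1.

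The libraries held 34741988 to 44493544 gene counts in WT and 38466413 to 50326153 in MLL-ENL. Levels below are CPM, in which each gene's count is set against its library's total as scaled by the TMM method, and values are listed in the order of replicates 1, 2 and 3. On the first principal component of log2 CPM, with 56.6% of the variance, the genotypes separated. On the second, with 18.5%, WT replicate 2 lay at -49.3 and MLL-ENL replicate 1 at -41.7, away from the other 4 libraries at 17.2 to 25.6. Features related to ribosomal RNA took 5.50% of the counts in WT replicate 2 and at most 1.83% elsewhere. MLL-ENL replicate 1 had 3.51 intron counts per 100 gene counts, and the others had 1.24 to 2.02. Genes with under 1000 exon bases lay lower in that library than in the other MLL-ENL libraries (median log2 difference -0.46), and genes with 8000 or more lay higher (0.35). The part of these features in the results was not tested. Results that rest on those libraries are also given without both of them, a setting chosen after the data had been seen.

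The genotype was first looked for at the genes of the fusion and of the strain label. Kmt2a (chromosome 9, 44803355 to 44881296) had 16.6, 21.4 and 14.5 CPM in the WT and 31.5, 24.9 and 27.9 CPM in the MLL-ENL libraries. All MLL-ENL libraries lay above all WT libraries, but the log2 change of 0.69 ± 0.27 (standard error, SE) missed the threshold (adjusted p = 0.211). The first 8 of its 36 coding-transcript exons, the front kept by such fusions, took 32.3, 30.4 and 28.4% of the counts of exons 1 to 8 and 15 to 36 in WT. In MLL-ENL they took 30.3, 34.7 and 38.6%. The shares, 30.3 ± 1.92% and 34.5 ± 4.17% (SD, n = 3), overlapped (exact permutation test, two-sided p = 0.3, where 0.1 is the smallest possible). The difference of 4.18 percentage points was 6.29 without MLL-ENL replicate 1 (exact permutation p = 0.1) and 2.13 without MLL-ENL replicate 3 (p = 0.5). In CPM, exons 1 to 8 had 5.12 ± 1.11 in WT and 9.51 ± 0.950 in MLL-ENL (SD, n = 3). Exons 15 to 36 had 11.7 ± 2.27 and 18.2 ± 3.02 CPM, so that both parts were higher in MLL-ENL. Neither part overlapped between the groups (exact permutation p = 0.1 each, the smallest possible). Mllt1 (chromosome 17, 56892611 to 56935415) had 10.6, 10.6 and 9.84 CPM in WT and 11.7, 13.5 and 13.99 CPM in MLL-ENL (0.33 ± 0.24, adjusted p = 0.459). Its exons 7 to 12 held 96.8 ± 2.96% of its counts in WT and 97.6 ± 1.26% in MLL-ENL (SD, n = 3), near the highest possible share in both, so that it could hardly rise. The counts of those exons were 10.01 ± 0.430 and 12.7 ± 1.36 CPM (SD, n = 3), with no overlap (exact permutation p = 0.1, the smallest possible). Exon 12 alone held 9.87 and 12.5 CPM of these. The groups did not overlap for 30.0% of all genes tested. Col1a1 (chromosome 11, 94936224 to 94953042), the locus in the strain label, had 0.366, 0.175 and 0 CPM and 0.342, 0.260 and 0.292 CPM, too few counts to read a change from. Gene counts do not separate transgene from endogenous transcripts.

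A clear difference between the strains lay at a locus the labels do not name. Gt(ROSA)26Sor, the non-coding RNA gene of the Rosa26 locus that is widely used for targeted transgenes, was the 1 gene called in opposite directions by its exons and its introns. It is named here after its values were seen. Its exon 2 (chromosome 6, 113070398 to 113071435) had 28.03, 13.4 and 31.4 CPM in WT and 0.506, 0.572 and 1.32 CPM in MLL-ENL. Its intron 1 (chromosome 6, 113071436 to 113077067) had 0.415, 0.491 and 0.634 CPM in WT and 6.34, 9.10 and 10.53 CPM in MLL-ENL. Exon 2 was thus low and intron 1 high in every MLL-ENL library, with no overlap (exact permutation p = 0.1 each, the smallest possible). Exon 1, with 0.529 ± 0.245 CPM in the WT libraries and 0.799 ± 0.171 CPM in MLL-ENL (SD, n = 3), did not separate the groups (exact permutation p = 0.3). Over the whole gene, exon counts gave a log2 change of -2.39 ± 0.30 (adjusted p = 0.00177) and intron counts one of 4.06 ± 0.53 (adjusted p = 2.19e-10). What lies at the locus in these mice was not tested.

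**Figure D1:**
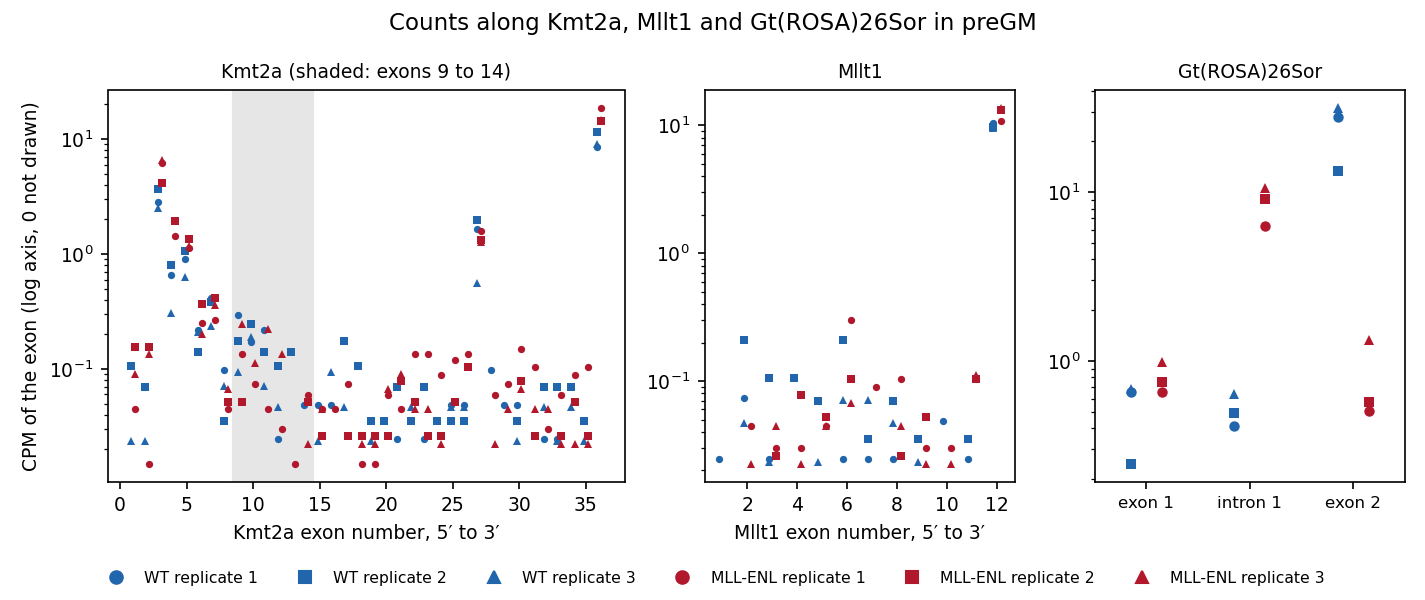
CPM per library of each exon of Kmt2a and Mllt1, numbered from the 5′ end, and of exon 1, intron 1 and exon 2 of Gt(ROSA)26Sor; blue marks WT and red MLL-ENL libraries, on log axes that leave out zeros. Counts pile up in the long exons and at the 3′ ends of Kmt2a and Mllt1 in both groups, while at Gt(ROSA)26Sor the groups separate in opposite directions in intron 1 (0.415 to 0.634 against 6.34 to 10.53 CPM) and exon 2 (13.4 to 31.4 against 0.506 to 1.32 CPM).

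Of 14532 genes tested with edgeR, 341 were higher (2.35%) and 411 lower (2.83%) in MLL-ENL preGM at an adjusted p below 0.05, together 5.17%. Every one of these 752 genes differed by more than 2-fold, 81 of the higher and 136 of the lower ones by more than 8-fold. The groups did not overlap for 30.0% of all genes tested, called or not, and the median log2 change of all genes tested was 0.07. This median differed with gene length. For genes with under 1000 exon bases it was -0.54, with 1.37% called higher and 4.33% lower. For genes with 8000 or more it was 0.18, with 3.11% higher and 1.36% lower. Without the 2 libraries that stood apart these medians were -0.13 and 0.05. The part of gene length in the results was not tested. Without the 2 libraries that stood apart, 1477 genes were higher (10.1%) and 1770 lower (12.1%), among them 339 and 405 of the genes called with all libraries. The counts fell to 127 higher and 249 lower without WT replicate 1, to 141 and 293 without WT replicate 2, to 163 and 283 without WT replicate 3 and to 207 and 279 without MLL-ENL replicate 3. When libraries were scaled by size alone, which moved the median change by 0.32, 57.0% of the calls were increases, against 45.3% with TMM scaling.

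Among protein-coding genes with at least 10 CPM in the higher group and no overlap between the groups, the 12 largest increases were those of Fbp1 (3.63), Gdf3 (3.41), Meis1 (3.40), Myct1 (3.35), Cd27 (3.26), Adgrl4 (3.10), Cttn (3.06), Tmem98 (2.90), Il27ra (2.89), Hspa2 (2.79), Psma8 (2.78) and Cd59a (2.68), as log2 changes. Fbp1, the gluconeogenic enzyme fructose bisphosphatase (chromosome 13, 62864753 to 62888282), had 4.49, 1.16 and 4.13 CPM in WT and 26.5, 50.7 and 45.0 CPM in MLL-ENL (adjusted p = 0.00312). Gdf3, a ligand of the TGF-beta family (chromosome 6, 122605403 to 122610087), had 2.002, 0.842 and 2.07 and 11.5, 21.1 and 20.05 CPM (adjusted p = 0.00129). In both genes WT replicate 2 was the lowest WT library and MLL-ENL replicate 1 the lowest MLL-ENL library, and the groups stayed apart. Myct1 (chromosome 10, 5593775 to 5606904) went from 2.28 ± 0.376 to 23.2 ± 5.64 CPM (SD, n = 3; 3.35 ± 0.31, adjusted p = 0.000334) and Psma8, a proteasome subunit best known from testis, from 3.98 ± 0.565 to 27.4 ± 2.08 CPM (2.78 ± 0.27, adjusted p = 0.000376). Adgrl4, an adhesion receptor first known from endothelium, went from 7.28 ± 1.05 to 62.5 ± 28.1 CPM and Cd59a, a complement inhibitor, from 2.64 ± 0.346 to 17.0 ± 4.55 CPM. Hspa2, a chaperone of the HSP70 family, Il27ra, a cytokine receptor subunit, and Cttn, the actin-binding protein cortactin, were lost as calls without WT replicate 2 (adjusted p = 0.0609, 0.0646 and 0.0922). Cttn was 26.4 CPM in MLL-ENL replicate 1 and 7.23 and 7.21 CPM in the others, against 1.81, 1.37 and 1.72 CPM in WT.

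HOXA genes rose. Of the 11 genes of the cluster, 7 had enough counts to be tested, and 4 of these rose, with a median log2 change of 2.08 against 0.07 for all genes. Hoxa9, the gene of this cluster most tied to MLL leukaemia (chromosome 6, 52223100 to 52231089), had 8.25, 6.59 and 7.54 CPM in WT and 35.8, 29.4 and 29.4 CPM in MLL-ENL. The 3 values of each group lay close together and the groups did not overlap (log2 change 2.08 ± 0.26, adjusted p = 0.00163). Hoxa10, its neighbour (chromosome 6, 52231197 to 52240854), was nearly silent in WT at 0.146, 0.421 and 0.305 CPM and reached 7.56, 7.57 and 5.59 CPM (4.59 ± 0.41, adjusted p = 0.000279). Hoxa7 (chromosome 6, 52214491 to 52221854) went from 8.96 ± 0.903 to 57.7 ± 13.8 CPM (SD, n = 3; 2.68 ± 0.31, adjusted p = 0.00112), with MLL-ENL replicate 1 lowest of its group at 41.8 CPM. Of its exon bases, 20% are shared with another gene, and reads there cannot be assigned to one of the pair. Hoxa5 was low in all libraries, at 0.366, 0.772 and 0.540 CPM and 1.22, 2.45 and 2.85 CPM (1.96 ± 0.45, adjusted p = 0.0342), and its call was lost without WT replicate 1, 2 or 3 or MLL-ENL replicate 2 or 3 (adjusted p up to 0.153). Per kilobase of exon, Hoxa7 had the highest mean of these 4 genes in MLL-ENL, 20.1 CPM per kilobase, followed by Hoxa9 with 5.65, Hoxa10 with 2.11 and Hoxa5 with 1.16. Hoxa3 (2.34 ± 0.63, adjusted p = 0.0655) and Hoxa4 (1.13 ± 0.63) did not pass. The number was 6 of 7 without the 2 libraries that stood apart. In this list and in the 3 described next, the other HOX genes, the HOX cofactors and other fusion targets, 0 members were lower with edgeR, 0 at an unadjusted p below 0.05, and 0 with DESeq2 or limma. With no filter on low counts, or with all distinct exon intervals counted, the cofactor Pknox2 was called lower, at 0.244, 0.210 and 0.611 CPM in WT and 0 in each MLL-ENL library.

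Outside the HOXA cluster, 28 HOX genes were looked at and 26 had too few counts to test. Hoxb5 was the 1 that rose, from 1 count in each WT library to 22, 13 and 16 counts in the MLL-ENL libraries (adjusted p = 0.0105; lost without WT replicate 1 or 3, adjusted p up to 0.0797). Hoxb4 (chromosome 11, 96318267 to 96321638) had 1.46, 1.89 and 1.06 CPM in WT and 0.387, 1.07 and 0.875 CPM in MLL-ENL, which did not pass (-0.93 ± 0.45, adjusted p = 0.297).

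HOX proteins bind DNA with cofactors of the MEIS and PBX families. Of 9 cofactor genes 6 were tested, 3 rose, and the median log2 change was 0.95. Meis1 (chromosome 11, 18879817 to 19018985) had 7.40, 6.73 and 8.43 CPM in WT and 146, 46.1 and 45.7 CPM in MLL-ENL. MLL-ENL replicate 1 was thus well above the other 2 of its group, and all 3 lay far above WT (3.40 ± 0.50, adjusted p = 0.00422). Without the 2 libraries that stood apart, a setting chosen after the data had been seen, Meis1 was still called, at a log2 change of 2.54. Without WT replicate 2 alone the call was lost (adjusted p = 0.0524). Pbx3 (chromosome 2, 34171457 to 34373142) had 1.29, 1.68 and 1.67 and 3.62, 3.17 and 4.67 CPM (1.30 ± 0.31, adjusted p = 0.0371), a call lost without WT replicate 1, 2 or 3 or MLL-ENL replicate 2 or 3 (adjusted p up to 0.205). Without WT replicate 2, 1 cofactor rose. Meis2, Meis3 and Pknox2 had too few counts to be tested.

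Of 16 other known targets of MLL fusions, all tested, 6 rose, with a median log2 change of 0.83. Mecom, whose product EVI1 is a transcription factor of stem cells (chromosome 3, 29951296 to 30548008), had 0.464, 0.491 and 0.329 CPM in WT and 6.95, 4.24 and 5.43 CPM in MLL-ENL (3.70 ± 0.36, adjusted p = 0.000376). Eya1, a transcriptional coactivator and phosphatase (chromosome 1, 14168954 to 14310235), had 0.464, 0.596 and 0.211 and 11.9, 4.37 and 5.77 CPM (4.14 ± 0.51, adjusted p = 0.00157). Both were below 1 CPM in every WT library and above 4 CPM in every MLL-ENL library. Flt3, a growth factor receptor of early progenitors, went from 7.35 ± 0.633 to 20.2 ± 9.09 CPM (SD, n = 3; 1.46 ± 0.34) and Tcf4, a helix-loop-helix factor, from 30.6 ± 9.60 to 94.9 ± 9.32 CPM (1.63 ± 0.34). Their calls were lost without WT replicate 1, 2 or 3, and without WT replicate 1 or 3 or MLL-ENL replicate 1 or 3 (adjusted p up to 0.143 and 0.103). Mef2c and Runx2, both transcription factors, also rose (1.30 ± 0.32 and 1.20 ± 0.24), Mef2c at an adjusted p of 0.0432 that was lost without any 1 of the 6 libraries, and Runx2 lost without WT replicate 1 or 3 or MLL-ENL replicate 3 (adjusted p up to 0.129). The transcription factor gene Myb had 85.9, 96.8 and 103 and 152, 129 and 133 CPM. Its groups did not overlap, yet it did not pass (0.53 ± 0.31, adjusted p = 0.38), nor did Bcl2 (0.96 ± 0.25, adjusted p = 0.0605) or Cdk6 (0.65 ± 0.41). Of the 16, 11 rose without the 2 libraries that stood apart, without WT replicate 1 or 3 only 2, and without MLL-ENL replicate 3 only 3.

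**Figure D2:**
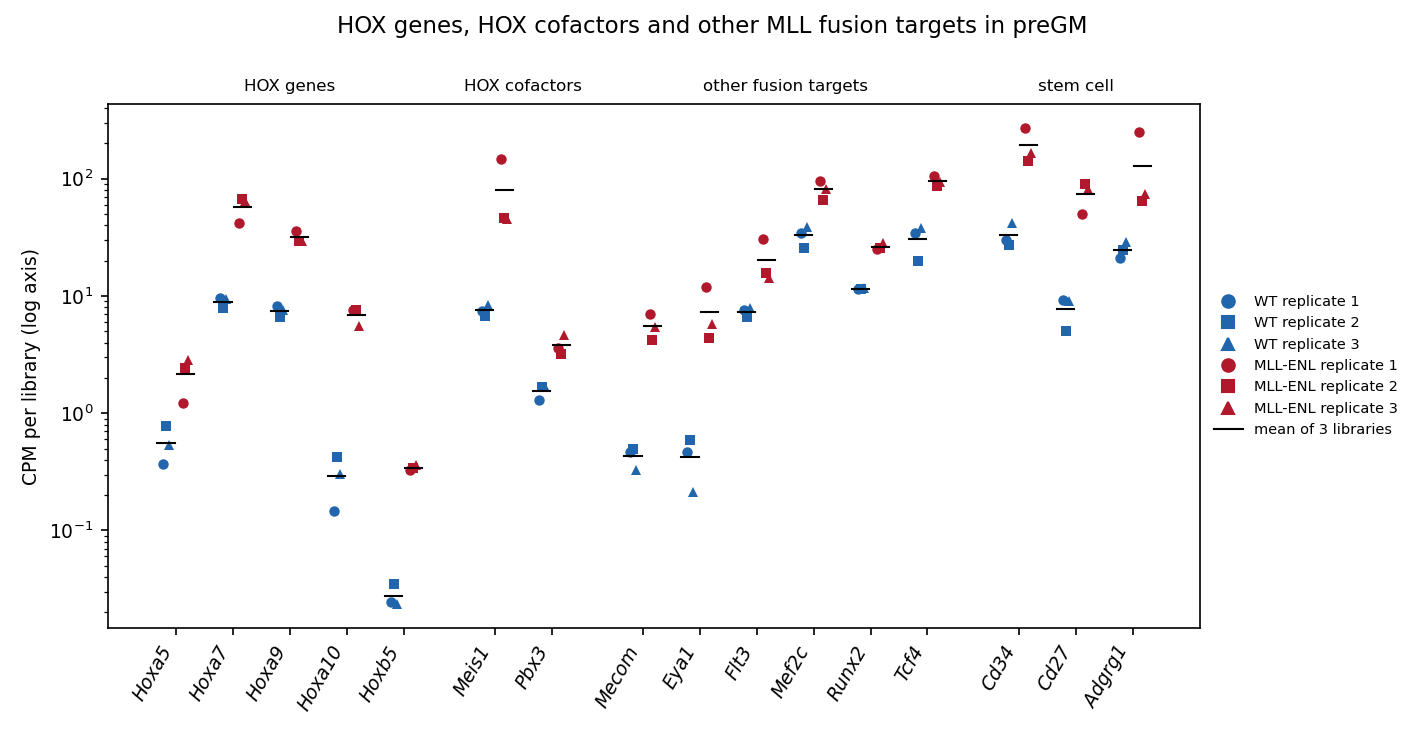
CPM per library, on a log axis, of HOX genes, HOX cofactors, other MLL fusion targets and 3 stem cell genes; each point is 1 library, with blue for WT and red for MLL-ENL, and bars are means of 3. For every gene drawn all red points lie above all blue ones, and MLL-ENL replicate 1 (red circle) is highest for Meis1 (146 CPM), Flt3 (30.6 CPM) and Adgrg1 (249.8 CPM) but lowest for Hoxa7 (41.8 CPM) and Cd27 (50.3 CPM).

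The genes of the complexes that MLL fusions work through, such as menin (Men1), the DOT1L methyltransferase and the super elongation complex, showed 0 of 19 members higher and 0 lower with edgeR. Over all genes tested 2.35% were higher and 2.83% lower, so that 0 of 19 says little about these genes. At an unadjusted p below 0.05, 2 were higher and 0 lower, and DESeq2 and limma called 0. Without the 2 libraries that stood apart 3 were higher, where 10.1% of all genes were higher. The median log2 change was 0.09, with Dot1l at 0.06 ± 0.26 and the elongation factor scaffold Aff1 at -0.33 ± 0.26. Men1 had 13.96, 16.7 and 16.8 CPM in WT and 42.0, 17.4 and 17.9 CPM in MLL-ENL (0.70 ± 0.37), and the elongation factor Ell had 6.37, 6.03 and 5.90 and 24.5, 5.85 and 8.73 CPM (1.10 ± 0.47). Both were high in MLL-ENL replicate 1 alone.

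Genes of stem and multipotent cells were higher in MLL-ENL preGM. Of 31 such genes 27 were tested, 14 rose and 1 fell, and the median log2 change was 1.27. Cd34, the sialomucin that marks early progenitors (chromosome 1, 194938819 to 194961279), had 30.2, 27.4 and 42.1 CPM in WT and 271, 142 and 167 CPM in MLL-ENL (2.54 ± 0.39, adjusted p = 0.00554). Cd27, a TNF receptor family member (chromosome 6, 125232622 to 125237010), had 9.18, 5.05 and 9.04 and 50.3, 90.6 and 82.2 CPM (3.26 ± 0.39, adjusted p = 0.00123). MLL-ENL replicate 1 was the highest library for Cd34 and the lowest of its group for Cd27, and neither gene overlapped between the groups. Emcn, the endothelial and stem cell mucin endomucin, rose too (2.95 ± 0.43, adjusted p = 0.00392). Adgrg1, an adhesion receptor also called GPR56, had 249.8, 64.9 and 73.9 CPM in MLL-ENL against 21.2, 24.4 and 28.6 CPM in WT (2.39 ± 0.53, adjusted p = 0.0295). Its log2 change was 1.48 without the 2 libraries that stood apart, and its call was lost without WT replicate 1, 2 or 3 (adjusted p up to 0.151). Sox4, a transcription factor, had 17.1, 20.4 and 19.8 and 50.1, 60.3 and 62.7 CPM (1.60 ± 0.28, lost without WT replicate 1 or 3, adjusted p up to 0.0869). Angpt1, a ligand of the receptor Tek, had 9.03, 10.5 and 11.2 and 36.5, 19.95 and 25.1 CPM (1.41 ± 0.30, lost without WT replicate 1, 2 or 3 or MLL-ENL replicate 3, adjusted p up to 0.135). Procr, the protein C receptor, stood at the threshold (1.27 ± 0.32) and was lost without WT replicate 1, 2 or 3 or MLL-ENL replicate 2 or 3 (adjusted p up to 0.191). Hlf (0.22 ± 0.27, adjusted p = 0.661) and Gata2 (0.35 ± 0.27, adjusted p = 0.488), both stem cell transcription factors, did not pass. Of the 27, 6 rose without WT replicate 1, 8 without WT replicate 2, 6 without WT replicate 3 and 10 to 13 without 1 MLL-ENL library.

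The antigens of the sort were read as a check of the gate. Kit, the receptor the gate required, had 18.9, 23.0 and 22.2 CPM in WT and 78.7, 23.9 and 24.2 CPM in MLL-ENL and did not pass (0.98 ± 0.46, adjusted p = 0.283). It was high in MLL-ENL replicate 1 alone. Fcgr3 and Ly6a, whose antigens the gate excluded, had RNA in all WT libraries and fell. Fcgr3, which encodes CD16 (chromosome 1, 171051174 to 171064935), had 193, 103 and 207 CPM in WT and 18.0, 34.3 and 34.5 CPM in MLL-ENL (-2.53 ± 0.42, adjusted p = 0.00804). Ly6a, the Sca1 gene and the 1 stem cell member that fell, had 17.2, 21.1 and 16.7 and 3.99, 5.12 and 6.78 CPM (-1.79 ± 0.29, adjusted p = 0.00642). For both genes all WT libraries lay above all MLL-ENL libraries. Slamf1 (CD150) rose but stayed at 0.774, 0.806 and 1.48 CPM in MLL-ENL against 0.0732, 0.140 and 0.117 CPM in WT (3.20 ± 0.53, adjusted p = 0.00704), and Itga2b (CD41) went from 3.05 ± 0.334 to 12.3 ± 9.24 CPM (2.01 ± 0.47; lost without WT replicate 1, 2 or 3, adjusted p up to 0.19). Eng (CD105) did not pass (0.83 ± 0.35), nor did Fcgr2b, which encodes CD32 (-0.13). Of 15 gate and lineage antigen genes 9 were tested, 2 rose and 2 fell, with a median log2 change of -0.02. RNA says nothing of surface protein at the time of the sort, and the labels do not say whether the gate was applied before or after the culture.

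Granule genes fell, 3 of 12 tested for the primary granules and 17 of 23 tested for later granules and neutrophils. In bulk libraries fewer cells of a type and less RNA per cell cannot be told apart, here and for each cell type gene below. Of 12 primary granule genes, all tested, 3 fell, with a median log2 change of -1.34. Elane, neutrophil elastase (chromosome 10, 79886247 to 79888215), had 10396, 9982 and 8097 CPM in WT and 1329.9, 2106 and 2041 CPM in MLL-ENL (-2.38 ± 0.45, adjusted p = 0.0142), a call lost without WT replicate 1 or MLL-ENL replicate 2 or 3 (adjusted p up to 0.0769). Prtn3, proteinase 3, which lies next to it (chromosome 10, 79874476 to 79883174), had 3639.7, 3712 and 2887 and 686, 1187 and 1147 CPM (-1.76 ± 0.43), lost without WT replicate 1, 2 or 3 or MLL-ENL replicate 2 or 3 (adjusted p up to 0.193). Prss57, another serine protease of these granules, went from 171 ± 14.96 to 46.0 ± 8.60 CPM (SD, n = 3; -1.90 ± 0.33, adjusted p = 0.00964), lost without WT replicate 1 or MLL-ENL replicate 3 (adjusted p up to 0.0598). Mpo, myeloperoxidase (chromosome 11, 87793581 to 87804413), stood at 4691, 1832 and 6262 CPM in WT and 9578, 4284 and 5213 CPM in MLL-ENL, with overlapping groups (0.58 ± 0.56, adjusted p = 0.578). WT replicate 2 was lowest and MLL-ENL replicate 1 highest for it, and without both the log2 change was -0.20. Ctsg, cathepsin G, did not pass (-1.23 ± 0.45, adjusted p = 0.179). Without the 2 libraries that stood apart 10 of the 12 fell, and DESeq2 called 8 lower with all libraries. By edgeR 0 fell without WT replicate 1 or MLL-ENL replicate 3 and 1 without MLL-ENL replicate 2, where 8 were lower at an unadjusted p below 0.05 with all libraries. In this list, that of the later granules and that of the NADPH oxidase below, 0 members were higher with edgeR, 0 at an unadjusted p below 0.05, and 0 with DESeq2 or limma.

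Of 26 genes of secondary and tertiary granules and neutrophils, 23 were tested, 17 fell, with a median log2 change of -4.94. S100a8 (chromosome 3, 90668978 to 90670035) and S100a9 (chromosome 3, 90692632 to 90695721) encode the calcium-binding pair calprotectin. S100a8 had 1981, 2727 and 1606 CPM in WT and 3.28, 8.48 and 9.27 CPM in MLL-ENL (-8.23 ± 0.66, adjusted p = 0.000195), and S100a9 had 659, 861 and 549 and 0.849, 1.77 and 2.40 CPM (-8.69 ± 0.62, adjusted p = 9.77e-05). The secondary granule genes Camp, an antimicrobial peptide (chromosome 9, 109847379 to 109849617), Ltf, lactoferrin (chromosome 9, 111019271 to 111042767), and Ngp (chromosome 9, 110419747 to 110423012) fell to under 2 CPM in every MLL-ENL library. Camp had 44.3, 79.6 and 46.2 CPM in WT and 0.179, 0.104 and 0.135 CPM in MLL-ENL (-8.60 ± 0.47, adjusted p = 3.08e-05). Ltf had 25.0, 12.6 and 47.5 and 0.134, 0.130 and 0.0898 CPM (-7.86 ± 0.61, adjusted p = 0.000144). Ngp had 523, 282 and 526 and 0.730, 1.48 and 1.93 CPM (-8.33 ± 0.61, adjusted p = 0.000121). WT replicate 2 was the highest WT library for S100a8, S100a9 and Camp and the lowest for Ltf and Ngp, yet no WT library came near an MLL-ENL library. Fcnb, the lectin ficolin B, fell as far (49.8 ± 18.0 to 0.162 ± 0.105 CPM; -8.31 ± 0.58), as did the chitinase-like lectin gene Chil3 (105 ± 60.4 to 0.412 ± 0.234 CPM; -8.02 ± 0.76) and its relative Chil1 (-8.07 ± 0.69). Lcn2, lipocalin 2, an iron-trapping protein that other cells also make, kept 8.72, 15.7 and 22.6 CPM in MLL-ENL against 211, 289 and 177 CPM in WT (-3.85 ± 0.46, adjusted p = 0.00129). Mmp8, a granule collagenase, did not pass (-1.52 ± 0.39, adjusted p = 0.0563), and Cxcr2 (0.03 ± 0.30) and Padi4 (0.28 ± 0.39) were near 0.

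Promoters of 5 genes that fell are shown because the factors that drive granule genes, the C/EBP family and PU.1 in neutrophils and GATA factors in mast cells and eosinophils, have short recognition sequences that can be read in them. Each is 120 bases of RefSeq sequence on GRCm38.p6, read 5′ to 3′ on the gene's strand, and ends just before the start that RefSeq or GENCODE places further upstream. Distances below are from the RefSeq start. Capitals mark TTGCNNAA (a loose C/EBP core), GAGGAAGT (an ETS and PU.1 core) or AGATAA (the core of GATA factors), searched on both strands. All 5 promoters shown hold a match, and they do not stand for all genes that fell. Each of these sequences was found in at most 15.3% of the promoters of genes that fell.
S100a9 promoter (GRCm38.p6, chr3:90695722-90695841, minus strand): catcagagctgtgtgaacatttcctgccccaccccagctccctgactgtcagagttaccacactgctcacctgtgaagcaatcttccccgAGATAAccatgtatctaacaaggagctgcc
Ltf promoter (GRCm38.p6, chr9:111019151-111019270, plus strand): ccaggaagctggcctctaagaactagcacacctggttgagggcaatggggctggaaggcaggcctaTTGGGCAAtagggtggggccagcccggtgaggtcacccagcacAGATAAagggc
Ngp promoter (GRCm38.p6, chr9:110419627-110419746, plus strand): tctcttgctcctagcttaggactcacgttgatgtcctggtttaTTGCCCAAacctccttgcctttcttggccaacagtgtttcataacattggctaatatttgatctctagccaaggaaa
Elane promoter (GRCm38.p6, chr10:79886127-79886246, plus strand): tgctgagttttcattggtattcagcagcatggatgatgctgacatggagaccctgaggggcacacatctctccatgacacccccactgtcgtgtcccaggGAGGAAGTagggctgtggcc
Prss34 promoter (GRCm38.p6, chr17:25298274-25298393, plus strand): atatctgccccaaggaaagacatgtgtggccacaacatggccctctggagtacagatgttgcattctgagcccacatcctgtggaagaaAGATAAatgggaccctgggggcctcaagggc
Over the 250 bases before the start, TTGCNNAA was found in 9.56% of all 32851 RefSeq promoters, in 7.78% of the 12880 promoters of genes tested here, in 8.87% of the 293 of genes that rose and in 15.3% of the 392 of genes that fell. Of 15 later granule and neutrophil genes that fell and matched the table, 6 held it (40%), among them Ltf from base 75 to base 68 before the start and Ngp from base 138 to base 131. Of the same 15 promoters, 4 held AGATAA (26.7%), 2 held GAGGAAGT (13.3%), 3 held TGACAG, a MEIS core (20%), and 0 held TGATTTAT, a HOX and PBX site, or TTGCGCAA, the C/EBP palindrome, which is 1 form of TTGCNNAA. GAGGAAGT was found in 2.44% of all promoters, in 2.76% of those tested, in 3.41% of those that rose and in 5.87% of those that fell, and lay in Elane from base 85 to base 78. AGATAA was found in 9.99% of all and 6.37% of tested promoters, in 8.87% of those that rose and in 8.93% of those that fell. TGACAG was found in 15.9% of all, 14.3% of tested, 15% of risen and 17.6% of fallen genes' promoters, TGATTTAT in 0.837, 0.349, 0 and 0.255%, and TTGCGCAA in 0.164, 0.264, 0 and 0.51%. In S100a9, Ltf and Prss34, a mast cell and basophil protease gene, AGATAA began 30, 32 and 31 bases before the start, where a TATA box usually sits. These are matches of letters and show no binding.

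**Figure D3:**
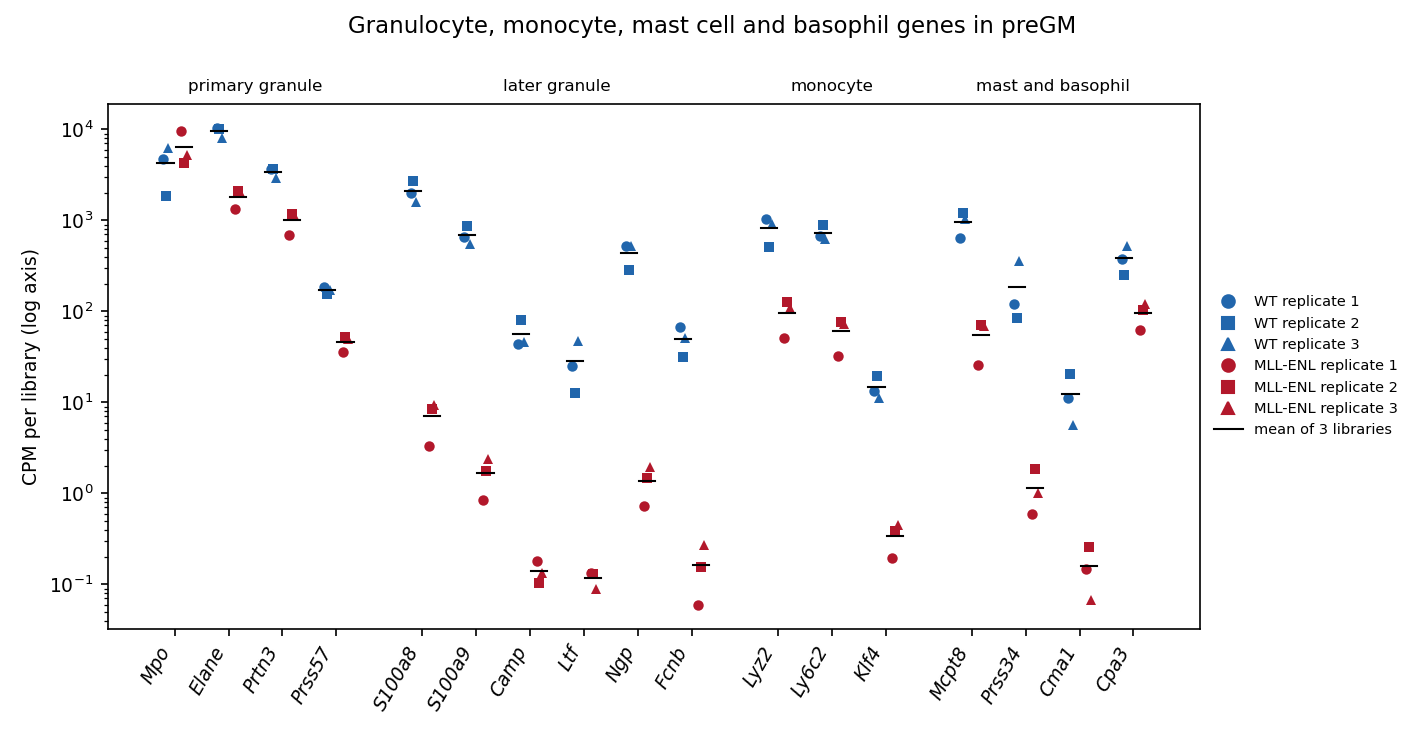
CPM per library, on a log axis, of primary granule, later granule, monocyte, and mast cell and basophil genes; each point is 1 library, with blue for WT and red for MLL-ENL, and bars are means of 3. Mpo overlaps between the groups (1832 to 6262 CPM in WT), every other gene drawn lies higher in all WT libraries, and Camp, Ltf, Fcnb and Cma1 lie under 0.3 CPM in every MLL-ENL library.

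Genes of monocytes and of the oxidative burst fell as well. Of 23 monocyte and macrophage genes 20 were tested, 11 fell, with a median log2 change of -2.12. The fit without the 2 libraries that stood apart called 15 lower and 2 higher, where 12.1% of all genes were lower and 10.1% higher. Klf4, a transcription factor of monocytes (chromosome 4, 55527143 to 55532466), had 13.3, 19.3 and 11.2 CPM in WT and 0.194, 0.390 and 0.449 CPM in MLL-ENL (-5.43 ± 0.42, adjusted p = 0.000144). Ly6c2, a surface antigen of inflammatory monocytes (chromosome 15, 75108158 to 75111970), had 680.1, 886 and 617 and 32.2, 76.5 and 73.3 CPM (-3.58 ± 0.48, adjusted p = 0.00241). Fibronectin (Fn1) went from 5.63 ± 0.995 to 0.142 ± 0.0864 CPM (SD, n = 3; -5.25 ± 0.46), galectin 3 (Lgals3) from 189 ± 26.1 to 12.02 ± 4.29 CPM (-3.98 ± 0.42) and lysozyme (Lyz2) from 820.2 ± 271 to 95.9 ± 39.9 CPM (-3.10 ± 0.50). Each of these 5 genes separated the groups in full. Csf1r, the M-CSF receptor that defines the lineage, did not pass (-0.30 ± 0.39, adjusted p = 0.689), nor did the chemokine receptors Ccr2 (1.06 ± 0.38) and Cx3cr1 (0.32 ± 0.40), and the macrophage complement genes C1qa and C1qc were too low to test. Cd14, a receptor for bacterial lipopolysaccharide, lay at 21.0, 5.93 and 22.3 and 43.2, 60.7 and 64.8 CPM and missed the threshold (1.78 ± 0.47, adjusted p = 0.0598), but was called higher by DESeq2 and limma, and in edgeR with all 12 libraries, with no filter and with the replicate block. Of 6 NADPH oxidase subunits, the catalytic Cybb fell from 79.2 ± 17.3 to 5.96 ± 1.68 CPM (-3.73 ± 0.36, adjusted p = 0.000376) and its partner Cyba from 1173 ± 439.9 to 312 ± 114 CPM (-1.91 ± 0.47, adjusted p = 0.0471). The Cyba call was lost without any 1 of the 6 libraries (adjusted p up to 0.129). The cytosolic subunits Ncf1 (-0.63 ± 0.35) and Ncf4 (-0.81 ± 0.49) did not pass.

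Of 13 dendritic cell and MHC class II genes 12 were tested, 4 fell, and the median log2 change was -0.78. Without WT replicate 1 or 3 or MLL-ENL replicate 1 or 2, 2 fell. Scaled by library size alone 2 fell and 1 rose. Without the 2 libraries that stood apart 6 fell and 2 rose, where 12.1% of all genes were lower and 10.1% higher. The class II chains H2-Aa and H2-Eb1 had 36.8, 45.5 and 60.2 and 18.7, 17.8 and 32.5 CPM in WT and 3.59, 5.41 and 7.74 and 2.02, 1.74 and 3.57 CPM in MLL-ENL (-3.09 ± 0.37 and -3.23 ± 0.39, adjusted p = 0.00129 and 0.00129). Cd74, the class II invariant chain, had 228, 75.1 and 332 and 23.2, 31.2 and 48.3 CPM (-2.63 ± 0.55), with WT replicate 2 lowest in WT, and was lost without WT replicate 1 or 3 or MLL-ENL replicate 1 or 2 (adjusted p up to 0.124). Batf3, a dendritic cell factor, fell (-3.18 ± 0.76; lost without WT replicate 1, 2 or 3 or MLL-ENL replicate 1 or 2, adjusted p up to 0.17), and H2-Ab1 (-1.02 ± 0.33), Ciita, the class II transactivator (-0.54 ± 0.49), and Siglech (1.57 ± 0.40) did not pass. Siglech, a receptor of plasmacytoid dendritic cells, was called higher by DESeq2 and limma, and in edgeR with library size alone, all distinct exon intervals, no filter or the replicate block.

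Mast cell, basophil and eosinophil genes fell as well. Of 20 genes 14 were tested and 9 fell, with a median log2 change of -3.01. All but 1 of these 9, the receptor gene Cd200r3, encode granule products. Mcpt8, a basophil protease (chromosome 14, 56082166 to 56085273), had 633, 1219.9 and 1027 CPM in WT and 25.9, 71.0 and 69.2 CPM in MLL-ENL (-4.12 ± 0.54, adjusted p = 0.00236). Prss34 (chromosome 17, 25298394 to 25300165) had 119.5, 84.8 and 357 and 0.596, 1.85 and 1.01 CPM (-7.36 ± 0.76, adjusted p = 0.000618). Cma1, mast cell chymase (chromosome 14, 55941451 to 55944675), had 11.3, 20.4 and 5.71 and 0.149, 0.260 and 0.0673 CPM (-6.30 ± 0.61, adjusted p = 0.00039). WT libraries differed widely among themselves, and no library stood high for all of these genes: Prss34 was highest in WT replicate 3 and Cma1 and Mcpt8 in WT replicate 2. Prg2, the major basic protein of eosinophils (chromosome 2, 84980461 to 84983632), had 6.05, 135 and 64.7 CPM in WT and 0.149, 0.0780 and 0.0673 CPM in MLL-ENL (-9.33 ± 1.16, adjusted p = 0.00157). Without the 2 libraries that stood apart Prg2 and Prss34 were no longer called (adjusted p = 0.204 and 0.0642), with log2 changes of -8.87 and -7.40. Gzmb, granzyme B, fell (90.7 ± 42.5 to 5.24 ± 0.377 CPM; -4.11 ± 0.45), and Cpa3, mast cell carboxypeptidase, kept 62.2, 104 and 122 CPM against 373, 248 and 523 CPM (-1.99 ± 0.44; lost without WT replicate 1 or 3 or MLL-ENL replicate 1, 2 or 3, adjusted p up to 0.1). The IgE receptor chains did not pass: Fcer1a had 13.6, 20.7 and 19.4 and 14.9, 15.8 and 18.8 CPM (-0.12 ± 0.27), and Ms4a2 had 24.8, 23.5 and 36.6 and 38.8, 15.4 and 17.7 CPM (-0.24 ± 0.39), with overlapping groups in both. Hdc, the histamine-forming enzyme, did not pass either (1.17 ± 0.44, adjusted p = 0.19).

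Among 22 transcription factors of the myeloid lineages, all tested, 7 fell, with a median log2 change of -0.97. Of the 22, 12 fell and 3 rose without the 2 libraries that stood apart, where 12.1% of all genes were lower and 10.1% higher. Within the C/EBP family, Cebpe, which late granule genes need (chromosome 14, 54710360 to 54712174), had 30.0, 24.5 and 23.8 CPM in WT and 4.65, 6.56 and 6.60 CPM in MLL-ENL (-2.14 ± 0.28, adjusted p = 0.00186). Cebpb (chromosome 2, 167688915 to 167690418) had 14.96, 25.0 and 15.3 and 2.44, 4.03 and 3.70 CPM (-2.44 ± 0.33, adjusted p = 0.00262), and Cebpd had 6.32, 12.98 and 5.17 and 0.730, 1.77 and 1.82 CPM (-2.51 ± 0.46; lost without WT replicate 2 or MLL-ENL replicate 1, adjusted p up to 0.0678). Cebpa, the family member that starts the granulocyte programme (chromosome 7, 35119293 to 35121928), had 39.6, 56.3 and 39.5 and 17.4, 31.1 and 32.0 CPM and did not pass (-0.75 ± 0.33, adjusted p = 0.261). Its lowest WT library lay above its highest MLL-ENL library, at 39.5 and 32.0 CPM, and without the 2 libraries that stood apart its log2 change was -0.32. Spi1, the gene of PU.1 (chromosome 2, 91082390 to 91115756), had 22.6, 36.4 and 18.3 and 5.55, 11.2 and 10.6 CPM (-1.50 ± 0.37, adjusted p = 0.0444), a call lost without WT replicate 1 or 2 or MLL-ENL replicate 1, 2 or 3 (adjusted p up to 0.155). Id2, an inhibitor of helix-loop-helix factors, went from 63.6 ± 10.9 to 13.5 ± 4.72 CPM (-2.23 ± 0.36, adjusted p = 0.00631), and Klf2 (-3.78 ± 0.54) fell with it. Gfi1, a repressor needed by granulocytes (-0.93 ± 0.29, adjusted p = 0.116), and Irf8, which directs cells to the monocyte fate (-0.83 ± 0.30, adjusted p = 0.171), did not pass, and Runx1 was near 0 (-0.02 ± 0.28).

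Receptors for the cytokines of the culture were measured next. Csf3r, the G-CSF receptor (chromosome 4, 126024550 to 126044440), had 16.9, 16.8 and 16.3 CPM in WT and 53.1, 16.2 and 17.3 CPM in MLL-ENL (0.80 ± 0.44, adjusted p = 0.351), level in all libraries but MLL-ENL replicate 1. Il3ra, the IL3 receptor chain, had 2.66, 1.33 and 1.17 and 2.23, 0.832 and 0.898 CPM (-0.37 ± 0.49, adjusted p = 0.691). Of 22 cytokine receptor genes, all tested, 3 rose and 3 fell, with a median log2 change of -0.09. Without the 2 libraries that stood apart, where 10.1% of all genes were higher and 12.1% lower, 5 rose and 10 fell, and without WT replicate 1 alone 1 rose. Those that fell were Csf2ra of the GM-CSF receptor (15.2 ± 3.40 to 5.11 ± 0.599 CPM; -1.57 ± 0.28, adjusted p = 0.00994, lost without MLL-ENL replicate 3, adjusted p = 0.0534), the chemokine receptor Cxcr4 (24.0 ± 0.949 to 6.17 ± 1.13 CPM; -1.95 ± 0.26, adjusted p = 0.00241) and Il6ra (6.89 ± 3.52 to 1.75 ± 0.656 CPM; -1.98 ± 0.44, lost without WT replicate 1 or 2 or MLL-ENL replicate 1 or 2, adjusted p up to 0.122). Besides Flt3, Il2ra (2.42 ± 0.39) and Il1r1 (1.82 ± 0.33, lost without WT replicate 1, adjusted p = 0.0681) rose. Of 26 feedback and immediate early genes of these pathways, 22 were tested and 2 fell, and without the 2 libraries that stood apart 4 rose and 6 fell. The kinase gene Pim1 (-1.32 ± 0.33) was lost without any 1 of the 6 libraries (adjusted p up to 0.125), and Fos (-2.26 ± 0.41) without MLL-ENL replicate 1 (adjusted p = 0.0522). Socs2 (-0.51 ± 0.24), Dusp6 (1.73 ± 0.54) and Egr1 (1.26 ± 0.36) did not pass.

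Genes of other lineages were read for cells the gate could hold. The shares over all genes were 2.35% higher and 2.83% lower with all libraries, and 10.1% and 12.1% without the 2 libraries that stood apart. Of 24 megakaryocyte and erythroid genes 19 were tested, 1 rose and 3 fell, with a median log2 change of 0.27. At an unadjusted p below 0.05, 6 were higher, and DESeq2 called 3 higher and the replicate block 4. It was 6 and 5 without the 2 libraries that stood apart, and the 3 that fell were 0 without WT replicate 2 or MLL-ENL replicate 1 and 1 without MLL-ENL replicate 3, where 5 were lower at an unadjusted p below 0.05 and with DESeq2 over all 6 libraries. The globin gene Hbb-bt had 13.3, 31.8 and 13.4 CPM in WT and 1.83, 6.56 and 5.28 CPM in MLL-ENL (-2.10 ± 0.51; lost without WT replicate 1 or 2 or MLL-ENL replicate 1 or 3, adjusted p up to 0.196), the platelet chemokine Pf4 did not pass (-1.95 ± 0.60, adjusted p = 0.11), and the globin genes Hba-a1 and Hba-a2 were too low to test. Gata1, the factor of these lineages, had 17.6, 5.998 and 25.0 and 40.1, 39.0 and 39.3 CPM, apart but not past the threshold (1.28 ± 0.44, adjusted p = 0.153). The summed CPM of this list was 191 to 368 in WT and 631 to 984 in MLL-ENL. Such a sum is set by the most abundant members, and 15 of the 19 tested genes were not called. Of 21 lymphoid genes 14 were tested, 2 rose and 2 fell, and 4 and 4 without the 2 libraries that stood apart. Dntt, the polymerase of antigen receptor joining, reached 1.62, 4.03 and 3.61 CPM in MLL-ENL against 0.0488, 0.175 and 0.117 CPM in WT (4.78 ± 0.57, adjusted p = 0.00124), and Gata3 rose at levels near 1 CPM (2.80 ± 0.62; lost without WT replicate 1 or 2 or MLL-ENL replicate 2 or 3, adjusted p up to 0.12). The pre-B-cell genes Igll1 (-2.51 ± 0.45, lost without WT replicate 2, adjusted p = 0.0651) and Cd79a (-2.81 ± 0.70, lost without WT replicate 1, 2 or 3 or MLL-ENL replicate 2 or 3, adjusted p up to 0.224) fell. The receptor Il7r stayed under 0.5 CPM in every library (-0.51 ± 0.53), and Rag1, Ebf1 and Cd3e were too low to test. Of 14 stromal and endothelial genes 7 were tested and 3 rose, the collagen gene Col1a2 (0.111 ± 0.0557 to 1.38 ± 0.196 CPM; 3.64 ± 0.50, adjusted p = 0.00302), Sparc (2.45 ± 0.47, lost without WT replicate 1 or 2 or MLL-ENL replicate 3, adjusted p up to 0.0899) and the receptor Pdgfrb (1.35 ± 0.225 to 6.93 ± 2.15 CPM; 2.37 ± 0.33, adjusted p = 0.00315), while Acta2 fell (-1.52 ± 0.32; lost without WT replicate 1, 2 or 3 or MLL-ENL replicate 3, adjusted p up to 0.12). Their defining partners Col3a1, Cxcl12, Cdh5 and Kdr were too low to test, with Cdh5 at 0 in 5 of the 6 libraries. The part of such cells in the results was not tested.

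Few genes of growth and survival were called. Over all genes tested only 2.35% were higher and 2.83% lower, so that few or 0 calls in lists of this size say little about their genes. Of 35 proliferation genes, all tested, 0 rose and 0 fell with edgeR. At an unadjusted p below 0.05, 3 were higher and 0 lower, and DESeq2 and limma called 0. The proliferation marker Mki67 had 157, 198 and 141 CPM in WT and 117, 107 and 119.9 CPM in MLL-ENL (-0.53 ± 0.33, adjusted p = 0.399) and did not pass, although all MLL-ENL libraries lay below all WT libraries. The replication helicase gene Mcm5 had 134, 99.3 and 214 and 592, 191 and 269 CPM (1.23 ± 0.50, adjusted p = 0.227). Of the 35, 3 rose and 6 fell without the 2 libraries that stood apart, where the shares over all genes were 10.1% and 12.1%. Among 13 tested CDK inhibitor, RB and cyclin D genes, Cdkn2c, an inhibitor of CDK4 and CDK6 (chromosome 4, 109660876 to 109667189), was the 1 that rose, from 4.05, 5.40 and 3.92 CPM to 10.2, 24.6 and 21.7 CPM (2.08 ± 0.36, adjusted p = 0.00962), and this was lost without WT replicate 2 (adjusted p = 0.0512). Cdkn1b (0.55 ± 0.27) and Ccnd1 (0.07 ± 0.31) did not pass. Of 25 MYC and ribosome biogenesis genes 0 rose and 0 fell with edgeR, with 4 higher and 0 lower at an unadjusted p below 0.05, 0 called by DESeq2 or limma, and 2 higher and 2 lower without the 2 libraries that stood apart. Myc itself had 75.5, 51.5 and 125 and 338, 119 and 134 CPM (1.23 ± 0.50, adjusted p = 0.228), with MLL-ENL replicate 1 far above the rest. Of 20 tested p53 targets 0 rose and 0 fell with edgeR, 3 were higher and 4 lower at an unadjusted p below 0.05, DESeq2 called 1 higher and 2 lower and limma 0, without the 2 libraries that stood apart 0 rose and 5 fell, and Mdm2 lay at 0.23 ± 0.30.

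Over all genes tested, 2.35% were higher and 2.83% lower with all libraries, and 10.1% and 12.1% without the 2 libraries that stood apart. With the replicate block 688 and 646 of 14532 genes were higher and lower. Within the BCL2 family, 3 of 15 tested genes fell, and 6 fell and 1 rose without the 2 libraries that stood apart. With all libraries the 3 were Bcl2a1a (8.03 ± 4.52 to 0.441 ± 0.194 CPM; -4.21 ± 0.50), Bcl2a1b (-3.41 ± 0.58, lost without WT replicate 2, adjusted p = 0.0638) and Bcl2a1d (-3.06 ± 0.50), near-identical copies of 1 survival gene among which reads cannot be placed with certainty. Mcl1, another survival gene, did not pass (-0.56 ± 0.31, adjusted p = 0.352). Of 17 tested interferon response genes 1 rose, the GTPase Igtp (1.79 ± 0.43), and it was lost without WT replicate 1 or 3 or MLL-ENL replicate 1, 2 or 3 (adjusted p up to 0.139), with Irf7 at 0.73 ± 0.44. At an unadjusted p below 0.05, 7 of these were higher and 3 lower, DESeq2 called 2 and 1, the replicate block 5 and 3, and the fit without the 2 libraries that stood apart 4 and 1. Of 16 genes of the ATF4 stress response 1 rose and 1 fell, Vldlr (1.29 ± 0.29, lost without WT replicate 1, 2 or 3 or MLL-ENL replicate 2 or 3, adjusted p up to 0.142) and Ddit4 (-2.15 ± 0.43, lost without WT replicate 1 or 2, adjusted p up to 0.0912), with Atf4 at -0.30 ± 0.37. Of the 16, 2 rose and 5 fell without the 2 libraries that stood apart. Of 18 glycolysis and gluconeogenesis genes Fbp1 was the 1 that rose, and the glycolytic enzyme gene Ldha had 3114, 677 and 3116 and 2274, 2934 and 2815 CPM (0.22 ± 0.57). WT replicate 2 was low for Ldha, and without the 2 libraries that stood apart 1 gene of this list rose and 8 fell. Among 16 tested integrins and selectins, Itga1, the collagen-binding integrin alpha 1 (chromosome 13, 114953096 to 115101964), fell from 7.30, 10.2 and 5.83 CPM to 0.417, 0.364 and 0.449 CPM and was the 1 called (-4.23 ± 0.35, adjusted p = 0.000225), while Itgam, or CD11b, had overlapping groups (-0.12 ± 0.38, adjusted p = 0.88). Of the 16, 3 rose and 5 fell without the 2 libraries that stood apart. Lipg, endothelial lipase, in none of the lists, was among the 12 largest decreases (33.2 ± 7.40 to 0.453 ± 0.0817 CPM; -6.18 ± 0.35, adjusted p = 3.08e-05).

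**Figure D4:**
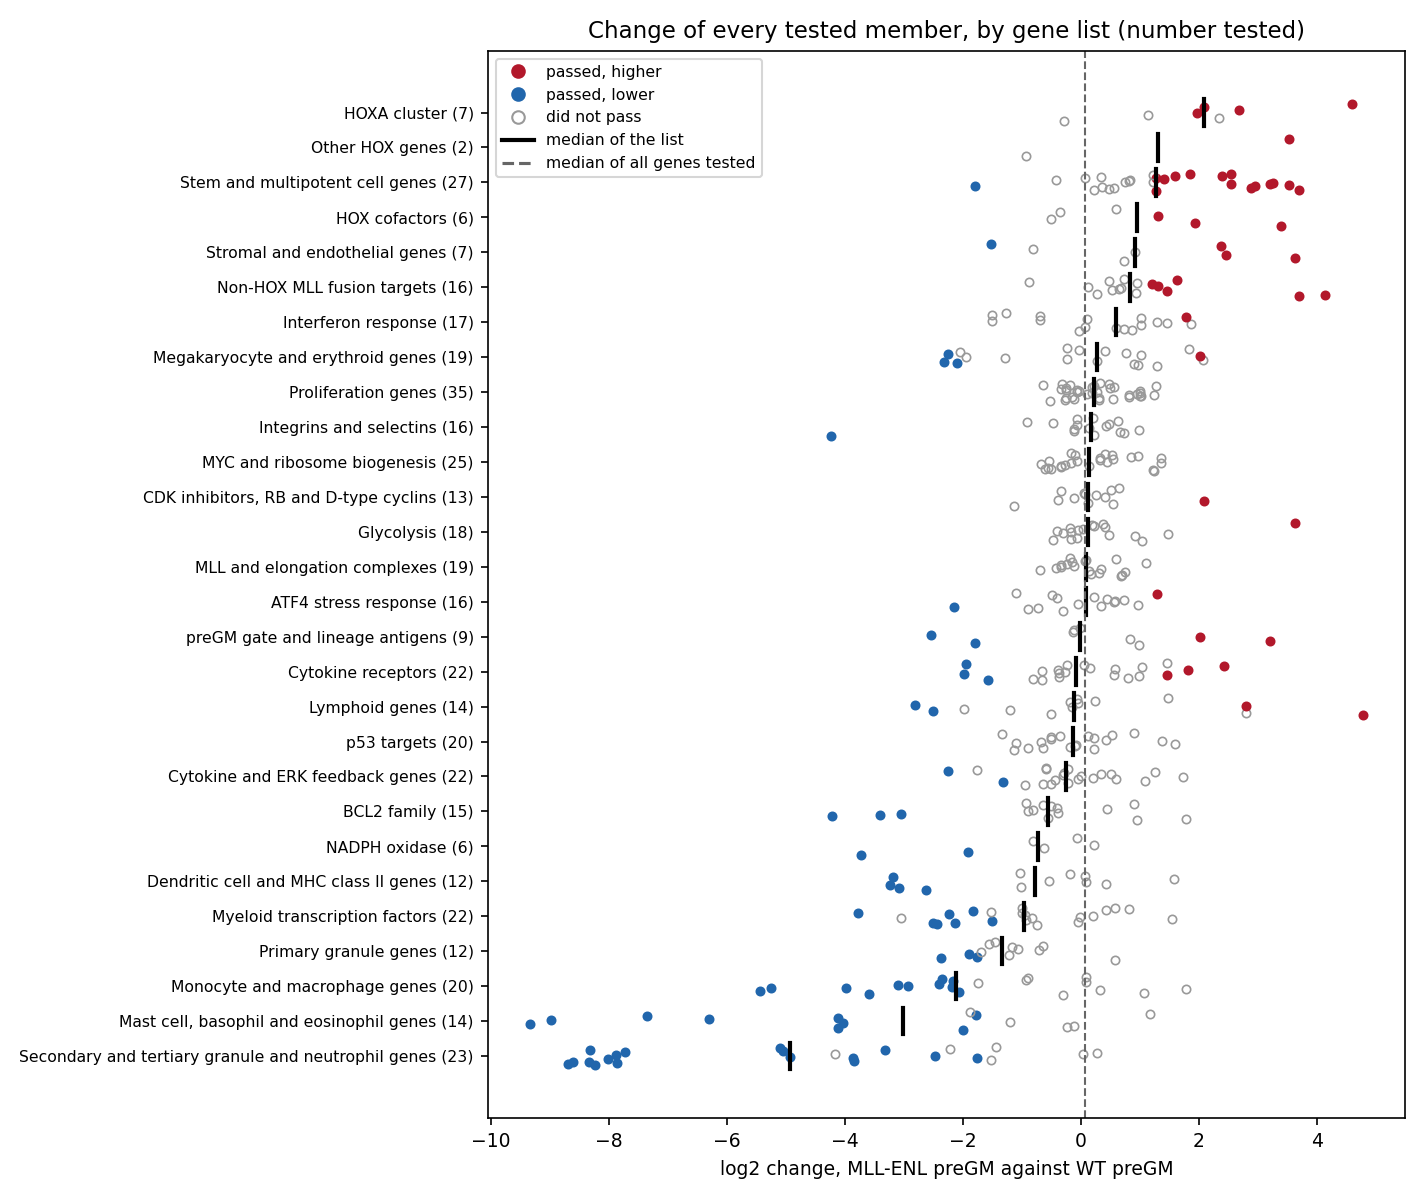
Log2 change of every tested member of the 28 gene lists, MLL-ENL against WT preGM, sorted by the median of the list (black bar); filled points passed the threshold, red higher and blue lower, open points did not, and the dashed line is the median of all genes tested (0.07). HOXA genes lie at the top (median 2.08), the later granule genes at the bottom (median -4.94), and the proliferation, MYC, p53 and MLL complex lists hold no filled point.

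Intron counts gave another readout, which the exon test did not use. Whether these reads came from transcripts not yet spliced was not tested. Of 8021 genes tested by introns that overlap no exon, 175 were higher (2.18%) and 126 lower (1.57%) in MLL-ENL, together 3.75%. These counts are sparse, and they moved to 96 and 198 without MLL-ENL replicate 1, the library richest in introns, to 339 and 106 without MLL-ENL replicate 3, and to 70 and 57, 85 and 81, and 49 and 88 without WT replicate 1, 2 and 3. Of the genes called by exons, 298 could be tested by introns. Of these, 131 of 137 that rose also lay above 0 by introns, 56 of them (40.9%) past the threshold, and 151 of 161 that fell lay below 0, 75 of them (46.6%) past it. Read the other way, 32% of the 175 genes higher by introns were also called higher by exons, and 59.5% of the 126 lower by introns were called lower. Over the 7758 genes tested by both, the log2 changes correlated with Pearson's r = 0.60, across genes, which are not independent replicates. Both counts come from the same libraries and share their depth. Meis1 introns had 2.54, 1.82 and 0.963 CPM in WT and 24.2, 10.3 and 9.88 CPM in MLL-ENL (3.06 ± 0.52, adjusted p = 2.63e-06), with MLL-ENL replicate 1 again highest. Intron counts also rose for Hoxa9 (2.77 ± 0.58, adjusted p = 0.000313), Mecom (4.32 ± 0.86, adjusted p = 0.000127) and Eya1 (4.34 ± 0.54, adjusted p = 1.31e-11). They fell for S100a8 (-8.05 ± 0.70, adjusted p = 4.52e-22), Fcnb (-9.10 ± 1.01, adjusted p = 2.61e-14), Ngp (-5.99 ± 0.72, adjusted p = 2.2e-12) and Mcpt8 (-3.34 ± 0.50, adjusted p = 5.16e-08). Elane introns did not pass (-1.45 ± 0.54, adjusted p = 0.122).

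Mpo and Myc were among the genes called by introns and not by exons. Mpo, which did not pass by exons, had 82.7, 51.8 and 83.7 CPM of introns in WT and 20.7, 19.1 and 16.7 CPM in MLL-ENL, and fell by this readout (-1.95 ± 0.55, adjusted p = 0.02) with all WT libraries above all MLL-ENL libraries. Myc introns had 0.879, 0.351 and 0.705 and 6.74, 1.85 and 1.06 CPM and rose (2.30 ± 0.50, adjusted p = 0.00068), where its exons had not passed. MLL-ENL replicate 1, the library richest in introns, was far above the rest at 6.74 CPM. MLL-ENL replicate 3 at 1.06 CPM lay close to WT replicate 1 at 0.879 CPM. A fit of Myc introns without MLL-ENL replicate 1 is not given here. Gt(ROSA)26Sor, described above, was the 1 gene called in opposite directions.

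**Figure D5:**
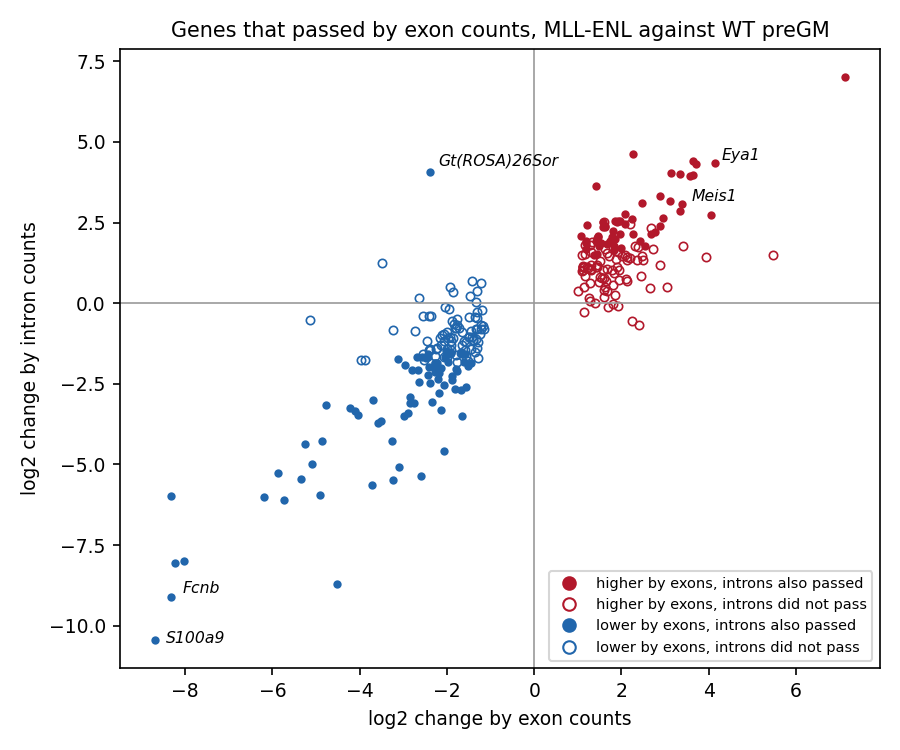
Log2 change by exon counts (horizontal axis) against log2 change by intron counts (vertical axis), MLL-ENL against WT preGM, for the 298 genes that passed by exons and could be tested by introns; filled points also passed by introns. Most points lie in the upper right and lower left (131 of 137 and 151 of 161), and Gt(ROSA)26Sor is the filled point in the upper left.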

How the data were processed

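RNA was sequenced from 3 MLL-ENL and 3 WT preGM libraries. Per the file headers, the authors deposited a read count and an RPKM for each exon, intron and spliced transcript of Ensembl models. The submitters' processing notes name TopHat2 2.0.8, Bowtie2 2.1.0, HTSeq and edgeR, with no role given, and the genome build and the use of strand are not given in the sources used here. Feature positions matched GRCm38 as in GENCODE M21, where 95.8% of 93615 transcripts were found. The deposited RPKM were not used, since they give no counts per gene. Gene counts were summed over the non-overlapping exons of a gene that cover the most bases, and intron counts over introns that overlap no exon. Without strand information, reads of overlapping or antisense genes cannot be told apart.

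Genes passing edgeR's expression filter (minimum count 10, minimum total 15) were tested with edgeR 4.0.16 in R 4.3.3, by the quasi-likelihood test on these 6 libraries with TMM scaling. P-values are two-sided and adjusted by Benjamini-Hochberg over all genes tested, at a threshold of 0.05. Intron counts were tested likewise with the scaling of the gene counts. DESeq2 1.42.0, limma 3.58.1 (prior count 2), other scalings, filters and gene counts, all 12 libraries in 1 fit, a replicate block and leaving out each library were alternatives. The procedure was tested on simulated data. Replicate numbers were not taken to pair the libraries in the main test. The deviations of same-numbered libraries from their group means correlated at 0.048, 0.11 and -0.095. With 3 libraries per group this cannot exclude pairing.

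The comparison, the 28 gene lists (522 genes) and the tests were chosen with earlier results of these data known, and list counts support nothing by themselves. Named are the 12 largest increases and decreases among called protein-coding genes with at least 10 CPM in the higher group, no overlap between groups and under 10% of exon bases shared with another gene. Named too are up to 4 called members of each list with at least 5 CPM, and members set as anchors of a list. Some list members are counted but not reported here by name. Other list members given to complete a count were picked after their values were seen. Counting intervals are not given, since the spread between libraries sets the precision for genes with many counts. Where a group held few counts, as for Hoxb5 in WT and Camp, Ltf, Cma1 and Prg2 in MLL-ENL, counting noise adds to it. The size of the log2 change is then uncertain.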

Additional observations from a re-analysis of the deposited data

How the results depend on the processing

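Without WT replicate 2 and MLL-ENL replicate 1, a setting chosen after the data had been seen, 1477 genes were higher and 1770 lower, against 341 and 411. By introns 95 were then higher and 142 lower, against 175 and 126. DESeq2 called 588 higher and 672 lower, the fit of all 12 libraries 582 higher, and scaling by library size alone 250 lower. By introns, scaling by library size alone gave 55 lower. When 1 library was left out, 127 to 286 genes were higher and 249 to 352 lower, and by introns 49 to 339 and 57 to 198. The replicate block gave 688 higher and 646 lower genes, and 315 higher and 189 lower by introns. The numbers do not pair the libraries, and same-numbered libraries correlated at 0.048, 0.11 and -0.095 in their deviations. The MLL-ENL minus WT difference in the share of Mllt1 counts in exons 7 to 12 was 0.83 percentage points with all libraries and -0.88 to 1.76 when 1 library was left out, negative without WT replicate 2 alone. It was 6.77 with counts per base of exon (exact permutation p = 1). The cause of these changes was not tested.

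Of the 151 tested genes named, 93 passed the threshold, and 0 of these changed direction in any of the 16 alternatives. Of the 93, 48 passed in every alternative. Scaling by library size alone ended the calls of 16, among them Acta2, Adgrg1, Batf3, Cd74, Cd79a, Cpa3, Csf2ra, Flt3, Hbb-bt, Igtp, Il6ra, Itga2b, Mef2c, Pim1 and Spi1. Scaling by DESeq2's size factors in edgeR ended those of Procr and Prtn3, and limma those of Itga2b and Procr. Counting all distinct exon intervals ended 5 calls, counting the longest transcript 5, fitting all 12 libraries 2, leaving out the 2 libraries that stood apart 2, and leaving out 1 library 14 to 33. A sign change was seen in 15 genes that had not passed, as log2 changes. With library size alone Aff1 lay at 0.015, Csf1r at 0.12, Fcer1a at 0.20, Il3ra at 0.027, Itgam at 0.29, Ms4a2 at 0.15 and Runx1 at 0.31. With limma Cxcr2 lay at -0.0079 and Runx1 at 0.012, with the replicate block Cxcr2 at -0.0088 and Runx1 at 0.012, with no filter Runx1 at 0.014, and with all exon intervals Dot1l at -0.037. Without both libraries that stood apart Fcer1a lay at 0.074, Ldha at -0.11, Mpo at -0.20, Padi4 at -0.44 and Runx1 at 0.27. Over the fits that left out 1 library, Ccnd1 ranged from -0.11 to 0.19, Cx3cr1 from -0.12 to 0.59, Cxcr2 from -0.16 to 0.26, Dot1l from -0.057 to 0.19, Fcer1a from -0.28 to 0.00079, Il3ra from -0.98 to 0.089, Itgam from -0.67 to 0.18, Ldha from -0.22 to 0.49, Mdm2 from -0.039 to 0.41, Padi4 from -0.24 to 0.54 and Runx1 from -0.14 to 0.21.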

Other observations

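Families of surface receptors that sit on maturing myeloid cells were read after the values of their members had been seen, so their counts describe these libraries and support nothing. Beside these counts and those of the next paragraph, 2.35% of all genes tested were higher and 2.83% lower. Without the 2 libraries that stood apart the shares were 10.1% and 12.1%. All 8 tested genes of the paired immunoglobulin-like receptors, which hold activating and inhibitory members, fell (median log2 change -4.20, edgeR), as they did without the 2 libraries that stood apart. Several are near-identical copies, and the reads of single members are uncertain. Of 8 tested C-type lectins of the Clec4 group, 6 fell. Clec4a2, an inhibitory receptor of dendritic cells and macrophages, had 36.8, 34.6 and 33.3 CPM in WT and 0.491, 0.754 and 0.741 CPM in MLL-ENL, a log2 change of -5.73 ± 0.33 (SE, edgeR adjusted p = 3.08e-05). The pattern was not shared by its neighbours Clec4d and Clec4e, receptors of mycobacterial glycolipids. Clec4e had 36.2, 36.7 and 42.3 CPM in WT and 38.5, 43.8 and 49.7 CPM in MLL-ENL (0.20 ± 0.28, adjusted p = 0.708), and Clec4d had 51.7, 98.4 and 53.3 and 18.7, 49.3 and 44.7 CPM (-0.85 ± 0.43, adjusted p = 0.316).

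Of 9 tested S100 genes 4 fell. S100a6 had 104, 199.5 and 97.6 CPM in WT and 11.5, 29.7 and 33.7 CPM in MLL-ENL (-2.42 ± 0.48, adjusted p = 0.0185), far less of a change than that of S100a8 and S100a9, while S100a11 did not pass (-1.67 ± 0.49, adjusted p = 0.0911). Within the LY6 family 5 of 9 tested genes fell, Ly6i the most (14.99 ± 7.99 to 0.680 ± 0.387 CPM, SD, n = 3; -4.48 ± 0.56, adjusted p = 0.00157), and Ly6e, with 1058, 1043 and 1026 CPM in WT and 371, 805 and 765 CPM in MLL-ENL, did not pass (-0.69 ± 0.42, adjusted p = 0.395). Among 7 tested CD300 receptors 3 fell and Cd300c rose, from 0.368 ± 0.0168 to 1.42 ± 0.672 CPM (SD, n = 3; 1.93 ± 0.48, adjusted p = 0.0461), while Cd300a overlapped between the groups (0.01 ± 0.41). Of 6 tested TREM receptors 1 fell, with a median log2 change of -0.55, and of 9 tested MS4A proteins 4 fell, with a median of -2.41.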
